A study of Mus musculus with 6 samples.

Results

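Nuclear receptors are transcription factors, many of which are switched by small lipophilic ligands such as thyroid hormone, retinoic acid, steroids and oxysterols. Their transcript levels were compared between the midbrain floor plate and the tissue beside it for 43 genes of the superfamily, all relatives of the dopaminergic factor gene Nr4a2, which itself was left out of the set. Members were taken by gene symbol: every probe set annotated to exactly 1 of these symbols was used, which gave 105 of the 45101 probe sets on the arrays and covered 41 of the 43 genes. Nr1h2 and Nr2e3 had no such probe set and were not analysed here, and 1 further probe set that names a member together with another gene was left out. Of the 41 genes, 15 were read by 1 probe set and 26 by several, up to 9 for Rora.

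Both groups were wild-type C57BL/6 tissue of embryonic day 10.5, with embryos of both sexes mixed. The floor plate, the ventral midline strip that secretes Sonic hedgehog and later gives rise to dopaminergic neurons, and the non-overlapping ventral lateral region were each represented by 3 samples, and every sample pooled tissue of 6 embryos. From each sample 5 ng of total RNA was amplified and hybridised to an Affymetrix mouse array. The deposited values are centred: each probe set's median over the 6 arrays is 0, so a value says how far a sample lies above or below the others on an assumed log2 scale, and levels of different genes cannot be compared. A consequence of this centring is that, where the regions do not overlap, the lowest value of the higher group and the highest value of the lower group are mirror images. The labels do not say whether pools of both regions came from the same embryos, so p-values reflect the spread between these 6 samples only. In bulk tissue, fewer cells of a type and less RNA per cell cannot be told apart.

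The dissection could be checked against markers of each region. Of 9 measured floor plate markers 8 were called higher and none lower in the floor plate. The other, Shh, had differences of 1.76 and 0.16 on its probe sets that were not called. Of 9 ventral lateral markers 7 were called lower and none higher. The remaining ones, Nkx6-1 and Sim1, had differences above 0 (0.71 for Nkx6-1, 0.32 and 1.28 for Sim1) that were not called. A probe set was called when its Benjamini-Hochberg adjusted p in limma, taken over 45037 probe sets without controls, was under 0.05. Among ventral lateral samples, the mean of the floor plate markers was -1.72, -0.92 and -2.11 in replicates 1, 2 and 3, and that of the ventral lateral markers was 1.52, 1.01 and 1.04. Neuronal markers were also unequal: Ina and Stmn2, an intermediate filament gene and a tubulin regulator gene, were lower in the floor plate, making 2 of 6. Stmn2 passed narrowly on 1 probe set (adjusted p = 0.0493 in limma) and not on its other (0.0515). Of the uncalled neuronal markers, Elavl4 lay at 0.02 to 0.05 and the others below 0. The list mean ran from -0.33 to -0.06 in floor plate and from 0.01 to 0.41 in ventral lateral samples. None of the markers of blood, macrophages or surface ectoderm (5 measured of each) was called. The part of neuronal cells in the lower receptor genes was not tested.

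The superfamily shares a modular protein with a zinc-finger DNA-binding domain and a ligand-binding domain that recruits coactivators or corepressors. Subfamilies NR1 to NR6 are defined by relatedness of sequence. Subfamily NR0 holds the atypical members Nr0b1 and Nr0b2, which lack the usual DNA-binding domain and act mainly by repressing other receptors. In the developing brain, Nr2e1 (Tlx) maintains neural progenitors, the COUP-TF genes Nr2f1 and Nr2f2 pattern regions, and Nr4a2 is required for the dopaminergic phenotype.

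Most nuclear receptor genes were not called between the regions, and the largest differences were lower values in the floor plate. Nr2e1, Nr0b1 and Nr5a2 were 15.4-fold, 4.72-fold and up to 4.16-fold lower there. Nr3c1 and Rxrg were higher, by 2.52-fold on 1 of 6 probe sets and by 1.89-fold on its single probe set. Rorb and Esrra were lower by less than 2-fold and passed the test narrowly. In all, 2 of 105 probe sets were called higher (1.90%) and 6 lower (5.71%), against 2.70% and 2.01% of all probe sets, or 4.71% in either direction. Counted by gene, 2 of 41 were higher (4.88%) and 5 lower (12.2%), against 4.58% and 3.24% of all named genes. A gene counted as higher or lower if at least 1 of its probe sets was called and none was called the other way, which favours genes with many probe sets, and members had 2.56 on average against 1.92 for all genes. The share of higher members is thus near or below the background, and that of lower members above it, a difference that rests on 5 genes and was not tested.

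**Figure D1:**
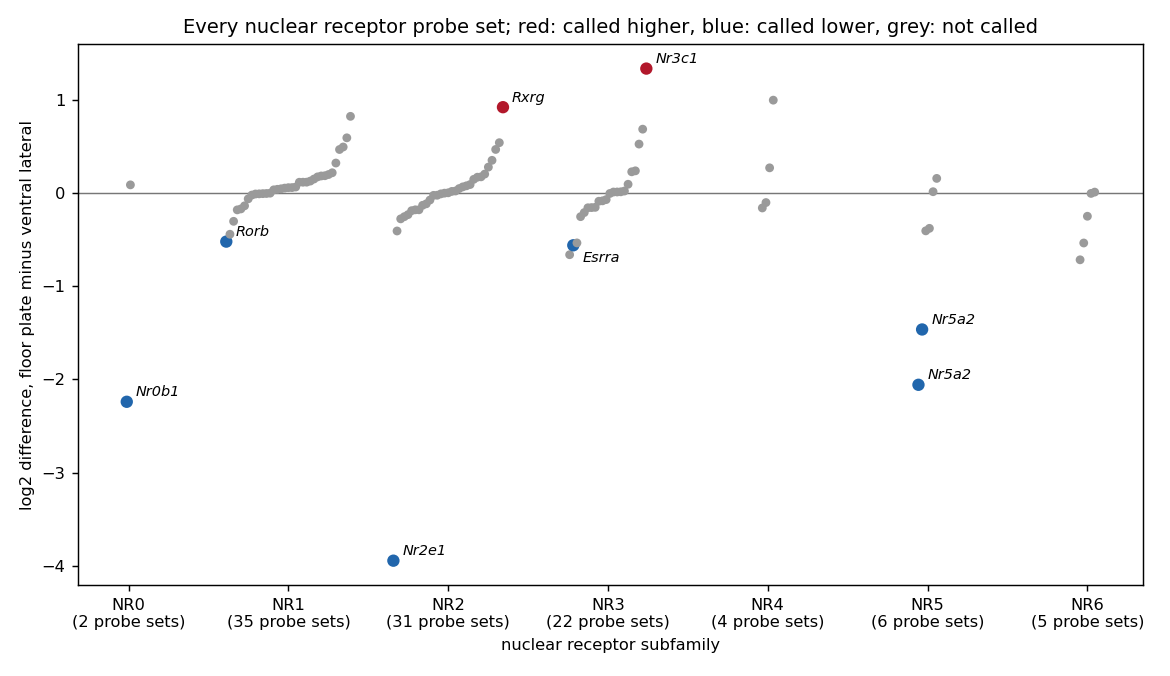
Log2 difference (floor plate minus ventral lateral) of each of the 105 nuclear receptor probe sets, ordered by size within its subfamily. Coloured points were called (red higher, blue lower); the bulk lies around 0, and Nr2e1 at -3.94 and Nr0b1 at -2.24 lie farthest below it.

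The median difference over the 105 probe sets was 0.01, and 0.159 regardless of sign, beside -0.00 and 0.128 over all probe sets. Groups did not overlap for 26 of them (24.8%), against 22.4% of all probe sets, and 12 of these were higher and 14 lower in the floor plate. The 97 uncalled probe sets had differences between -0.72 and 0.996. For 89 of 105 (84.8%) the 95% interval lay within 2-fold in both directions, against 93.4% of all probe sets. The called sets of Rorb and Esrra are counted in these 89. An adjusted p over the threshold does not show equal expression, but for these 89 a change of 2-fold or more lies outside the interval. That bounds the reading of the probe set and not the change of its gene. Probe set 1457289_at of Nr2e1 is among them (-0.68 to 0.32), whereas the other set of that gene differed by -3.94.

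The upstream sequence of the 3 genes with the largest differences is given for reference, since they were lower together in the floor plate. The 250 bases before each annotated start are from RefSeq, build GRCm38.p6, and are written 5′ to 3′ on the strand of the gene. Capitals mark any match, on either strand, to AGGTCA (the nuclear receptor half-site), TCAAGGTCA (the NR5A site, which contains the half-site), TGTTTAC (a forkhead core), TAATTA (a homeodomain core) or CAGCTG (an E-box).

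Nr0b1, chrX:86191525-86191774, plus strand: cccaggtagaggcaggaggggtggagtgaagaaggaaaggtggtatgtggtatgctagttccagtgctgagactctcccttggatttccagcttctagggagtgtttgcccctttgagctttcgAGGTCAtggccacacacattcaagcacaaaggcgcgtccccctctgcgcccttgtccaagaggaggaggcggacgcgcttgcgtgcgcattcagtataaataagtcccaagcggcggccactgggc
Nr2e1, chr10:42583591-42583840, minus strand: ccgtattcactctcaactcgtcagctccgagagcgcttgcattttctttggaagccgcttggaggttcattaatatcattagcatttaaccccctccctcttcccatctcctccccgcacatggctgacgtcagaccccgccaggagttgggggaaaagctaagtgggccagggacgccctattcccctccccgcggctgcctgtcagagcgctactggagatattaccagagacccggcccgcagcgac
Nr5a2, upstream start, chr1:136960449-136960698, minus strand: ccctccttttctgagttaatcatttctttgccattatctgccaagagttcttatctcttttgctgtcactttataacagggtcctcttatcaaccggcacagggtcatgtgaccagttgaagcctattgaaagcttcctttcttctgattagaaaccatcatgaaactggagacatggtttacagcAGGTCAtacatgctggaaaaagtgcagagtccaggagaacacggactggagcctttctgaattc
Nr5a2, downstream start, chr1:136953631-136953880, minus strand: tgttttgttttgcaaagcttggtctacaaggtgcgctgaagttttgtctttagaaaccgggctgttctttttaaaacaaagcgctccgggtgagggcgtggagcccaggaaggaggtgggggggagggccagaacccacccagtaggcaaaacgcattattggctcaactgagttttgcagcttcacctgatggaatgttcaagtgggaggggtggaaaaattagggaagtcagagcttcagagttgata

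The half-site occurred once in the Nr0b1 window, beginning 126 bases before the start, and once in the window of the upstream Nr5a2 start, 64 bases before it. None of the 5 motifs was found in the other 2 windows. AGGTCA was present in 14.0% of the 32851 promoter windows of this length in the table and in 11 of the 61 windows (18.0%) of the 40 member genes found there. TCAAGGTCA was in 0.387% of all windows and in 0 of the 61. TGTTTAC was in 3.17% of all windows and in 2 of the 61. TAATTA was in 4.84% and in 1, and CAGCTG in 13.0% and in 9. A match is a string of letters and no evidence of binding.

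In subfamily NR0, Nr0b1 (Dax1), a repressor of the NR5A receptors, was lower in the floor plate. Its values were -1.19, -0.90 and -1.06 in floor plate and 1.76, 0.90 and 0.90 in ventral lateral replicates 1 to 3. The groups did not overlap, and ventral lateral replicate 1 lay above the other two. The log2 difference was -2.24 (SE 0.23, adjusted p = 0.0021 in limma), and it stayed between -2.38 and -1.95 and past the threshold in all 14 alternatives that refit the probe set, including each fit without 1 sample. The ventral lateral marker mean was also highest in ventral lateral replicate 1, and its part in the Nr0b1 value was not tested. Nr0b2 (Shp), a repressor known from bile acid feedback in the liver, had a log2 difference of 0.09 that was not called.

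Subfamily NR5 held the targets of that repressor. Nr5a2 (Lrh1), an orphan receptor of early embryo, liver and gut, had differences below 0 on all 4 probe sets, and 2 of them were called lower in the floor plate. Probe set 1420410_at read -1.10, -0.91 and -0.71 in floor plate against 1.48, 0.71 and 1.26 in ventral lateral samples. The log2 difference was -2.06 (SE 0.20, adjusted p = 0.00166 in limma), called in each of 14 such alternatives. Probe set 1456521_at read -0.57, -1.41 and -0.30 against 1.08, 0.30 and 0.73, with floor plate replicate 2 well below the other two.

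Its log2 difference of -1.46 (SE 0.30, adjusted p = 0.0375 in limma) was no longer called when floor plate replicate 1 (adjusted p = 0.0986), ventral lateral replicate 1 (0.131) or ventral lateral replicate 3 (0.111) was left out, or after quantile normalization (0.0523). The remaining probe sets, 1449706_s_at and 1449707_at, gave -0.38 and -0.41, were not called (adjusted p = 0.148 and 0.149), and had groups that did not overlap either. Thus the 4 probe sets shared a direction but not a size. Nr5a1 (Sf1), the steroidogenic relative, had differences of 0.01 and 0.16 on its 2 probe sets and no call. Whether Nr5a1 and Nr5a2 differ in their response was not tested.

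**Figure D2:**
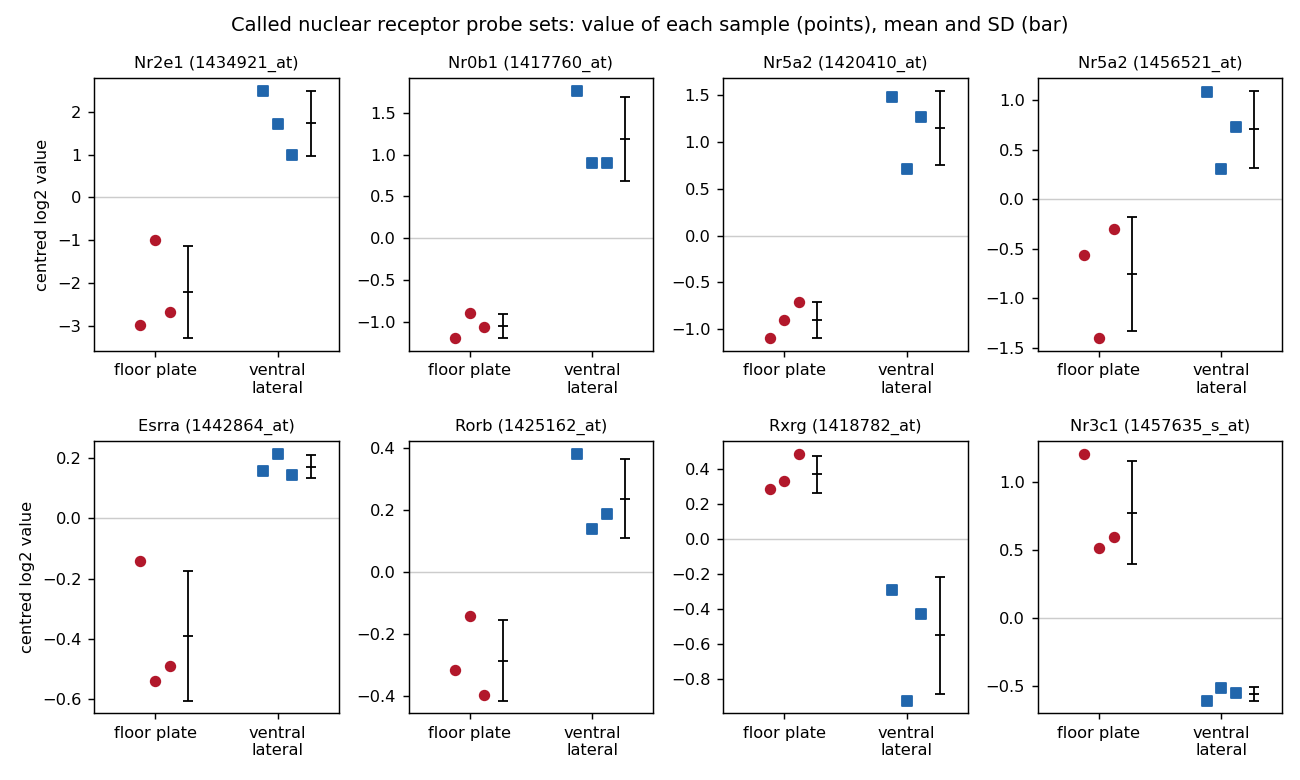
Centred log2 value of every sample for the 8 called probe sets, with floor plate samples as red circles, ventral lateral samples as blue squares, and the mean with its SD (n = 3) as a black bar. Vertical scales differ between panels; Nr2e1 spans from -2.99 to 2.49, whereas Esrra and Rorb stay within 0.54 of 0.

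Within NR2, the largest difference of the superfamily was that of Nr2e1 (Tlx), a repressor that keeps neural stem cells undifferentiated. Probe set 1434921_at read -2.99, -0.99 and -2.68 in floor plate and 2.49, 1.70 and 0.99 in ventral lateral samples. All 3 ventral lateral values were above all floor plate values, and floor plate replicate 2 stood closer to the ventral lateral samples than the other two. The means were -2.22 ± 1.08 and 1.73 ± 0.75 (SD, n = 3 each). The log2 difference was -3.94 (SE 0.56, adjusted p = 0.00724 in limma), with a 95% interval of -5.24 to -2.65. Leaving out floor plate replicate 2 gave -4.56, and leaving out floor plate replicate 1 or that of the ventral lateral group gave -3.56, each past the threshold. The second probe set, 1457289_at, gave -0.18 with overlapping groups (adjusted p = 0.763), so the difference rests on 1 of 2 probe sets. The mean of both was -2.06 and still passed.

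The retinoid X receptors, the common dimer partners of many NR1 and NR4 receptors, were not alike in call. Rxrg read 0.29, 0.33 and 0.49 in floor plate and -0.29, -0.93 and -0.43 in ventral lateral samples. The groups did not overlap and ventral lateral replicate 2 was lowest. Rxrg thus differed by 0.92 on the log2 scale (SE 0.17, adjusted p = 0.0238 in limma). The call was lost in the fits lacking floor plate replicate 1, 2 or 3 (adjusted p = 0.073, 0.0625 and 0.0838) or ventral lateral replicate 3 (0.0583), and the difference in those fits was 0.86 to 0.98. Rxra had differences of -0.13 to 0.28 on 3 probe sets and Rxrb one of -0.03 with an interval of -0.24 to 0.19. Neither was called, and the difference between the 3 paralogues was not tested.

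The COUP-TF genes were not called. Nr2f1 read -0.16, -0.05 and -0.47 in floor plate and 0.33, 0.15 and 0.05 in ventral lateral samples, without overlap. Its log2 difference of -0.41 did not pass (adjusted p = 0.177). Nr2f2 (COUP-TFII), also a venous and mesenchymal factor, had 6 probe sets with differences of -0.12 to 0.54, none called. On 1416159_at its values were 0.05, -0.10 and -1.13 in ventral lateral samples, against 0.29, 0.19 and -0.05 in floor plate. Ventral lateral replicate 3 was the lowest of the 6 samples on 4 of the 6 Nr2f2 probe sets, among them 1416158_at (-0.84) and 1416160_at (-0.89).

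In ventral lateral replicates 1, 2 and 3 the mean of 8 blood vessel markers was 0.02, 0.18 and 0.10, and that of 10 head mesenchyme markers -0.36, 0.27 and -0.09. Their part in the Nr2f2 values was not tested. The vessel marker Cldn5 was lower and the mesenchyme marker Twist1 higher in the floor plate, the only call in each list. Nr2f6 (Ear2) lay at -0.00 and -0.08. The testicular receptors Nr2c1 and Nr2c2 had differences of -0.28 to 0.02 over 5 and of -0.25 to 0.15 over 6 probe sets. Hnf4a, a liver and gut factor, lay between -0.01 and 0.17 on 4.

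Subfamily NR3, the steroid and estrogen-related receptors, held 1 gene called higher and 1 called lower. Nr3c1, the glucocorticoid receptor gene, was higher on probe set 1457635_s_at, at 1.21, 0.51 and 0.60 in floor plate against -0.61, -0.51 and -0.56 in ventral lateral samples. Floor plate replicate 1 was the highest, and the ventral lateral values lay within an SD of 0.05. This amounts to a log2 difference of 1.33 (SE 0.18, adjusted p = 0.00636 in limma), called in each fit without 1 sample (1.12 to 1.47).

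The other 5 probe sets of Nr3c1 gave 0.01, 0.09, 0.23, 0.24 and 0.68, all positive and none called. The one at 0.68, 1421867_at, read 0.17, 0.52 and 0.13 against -0.13, -0.34 and -0.76 without overlap (adjusted p = 0.0932). The mean over all 6 was 0.43 and passed, whereas the lowest-numbered probe set gave 0.24 (adjusted p = 0.214). The called probe set carries the suffix _s_at, used for sets that may match more than 1 transcript, so it has no value where such sets are left out. Nr3c2, the mineralocorticoid receptor gene, had a difference of -0.07 (not called).

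Esrra, an orphan receptor of mitochondrial energy metabolism, was lower on 1442864_at, at -0.14, -0.54 and -0.49 in floor plate against 0.16, 0.21 and 0.14. Its log2 difference of -0.56 (SE 0.12, adjusted p = 0.049 in limma) passed narrowly, and the call was lost in 9 of 14 alternatives. Among them were the fits without floor plate replicate 2 (adjusted p = 0.132) or 3 (0.147) and without ventral lateral replicate 1, 2 or 3 (0.138, 0.145 and 0.124). Its second probe set gave -0.25, also without overlap (adjusted p = 0.234). Esrrb and Esrrg ranged from -0.66 to -0.01 and from -0.09 to 0.52 with no call. Ventral lateral replicate 1 alone was high for Esrrb on 1436926_at (1.25, beside 0.00 and 0.31), and replicate 3 low for Esrrg on 1455267_at (-0.97, beside -0.01 and -0.44). The estrogen receptor genes Esr1 and Esr2 and the progesterone receptor gene Pgr had differences of -0.54 to 0.02 on 7 probe sets and no call.

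NR1, the largest subfamily with 16 measured genes and 35 probe sets, had 1 call. Rorb, a retinoid-related orphan receptor of sensory and cortical neurons, read -0.32, -0.14 and -0.40 in floor plate and 0.38, 0.14 and 0.19 in ventral lateral samples on 1425162_at. The log2 difference was -0.52 (SE 0.11, adjusted p = 0.0463 in limma). No fit that left out a sample called it (adjusted p = 0.0545 to 0.144), and the other probe sets gave -0.30 and 0.05.

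Rora, its paralogue, was not called on any of 9 probe sets, which ranged from -0.14 to 0.82. The highest, 1455165_at, read 0.35, 0.56 and 0.09 against -0.18, -0.09 and -1.20 (adjusted p = 0.199), with ventral lateral replicate 3 far below the rest. Next, 1458145_at gave 0.59, also without overlap (adjusted p = 0.145).

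None of the classical ligand receptors of NR1 was called. For the thyroid hormone receptor genes Thra and Thrb the differences were between -0.01 and 0.22 on 4 probe sets. The retinoic acid receptor genes Rara and Rarg lay at -0.01 to 0.18 on 3, and the fatty acid receptor genes Ppara, Ppard and Pparg at -0.00 to 0.32 on 6. Of these 13 probe sets, 1425703_at of Ppard was the highest, with an interval of 0.03 to 0.61 and an adjusted p of 0.244.

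The Rev-erb genes Nr1d1 and Nr1d2, repressors of the circadian clock, lay at -0.18 and at 0.19 and 0.20. Nr1h3 (liver X receptor alpha) had a difference of -0.01, and the bile acid receptor gene Nr1h4 one of -0.44 with overlapping groups (adjusted p = 0.321). The xenobiotic receptor genes Nr1i2 and Nr1i3 and the vitamin D receptor gene Vdr ranged from -0.17 to 0.12 on 5 probe sets, none called.

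In NR4, the closest relatives of Nr4a2 were not called. Nr4a3 (Nor1) had a log2 difference of 0.996 on 1438796_at, just short of the size at which uncalled members were to be named, and is described for that value. It read 0.64, 0.55 and 0.20 in floor plate and -0.20, -0.26 and -1.14 in ventral lateral samples, without overlap (SE 0.25, adjusted p = 0.0798 in limma). Its other probe sets gave 0.27 and -0.10. Nr4a1 (Nur77) had a difference of -0.16 (adjusted p = 0.552). Both are also known as immediate early genes. Of 9 other such genes 1, Atf3, was lower and none higher, beside 3.24% and 4.58% of all named genes. By comparison, 4 of 6 probe sets of Nr4a2 were called higher, with log2 differences of 1.40 to 1.90, and the other two gave -0.07 and 0.42.

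In NR6, Nr6a1 (Gcnf), which silences pluripotency genes as the embryo differentiates, had 5 probe sets with differences of -0.72 to 0.01. The lowest, 1428825_at, read -0.10, -0.58 and -0.88 against 0.38, 0.10 and 0.11 without overlap (adjusted p = 0.101). It passed without floor plate replicate 1 (-0.93, adjusted p = 0.0314).

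**Figure D3:**
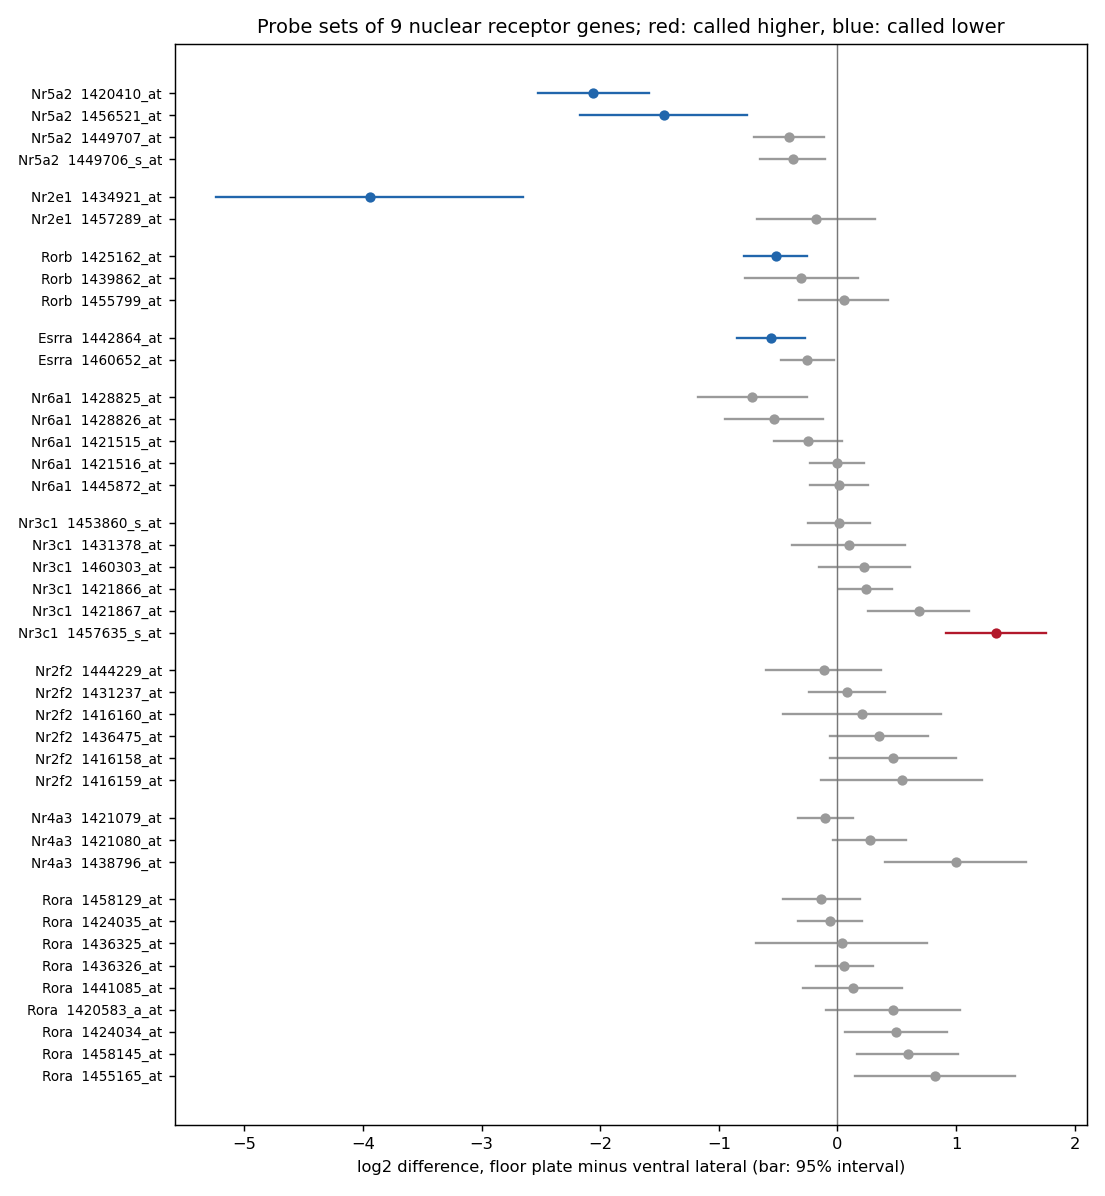
Log2 difference of each probe set of 9 nuclear receptor genes with its 95% interval (bar); red and blue mark calls. The 4 Nr5a2 sets all lie below 0 and the 6 Nr3c1 sets all above it, while the 2 Nr2e1 sets lie at -3.94 and -0.18.

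Probe sets of a gene did not always read alike. Of the 26 members with more than 1 probe set, 10 (38.5%) had all of them on the same side of 0, against 50.9% of the 9010 such genes on the array. Besides Nr5a2 and Nr3c1, this group held Esrra and Nr2e1 among the called genes, and Rorb was the called gene whose sets lay on both sides. The share on the same side falls as a gene has more probe sets. Members had 2.56 on average against 1.92 for all genes, and the 2 shares were not matched for this.

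The partners and targets of the receptors were examined in 9 lists, with calls by gene as above. Their counts stand beside 4.58% of all named genes called higher and 3.24% called lower. The lists are small, and no excess over these shares was tested. None of 18 coactivator genes, such as the Ncoa family, Crebbp and Ep300, was called, and their gene means lay between -0.30 and 0.35 on the log2 scale. Of 14 corepressor genes 2 were lower and 1 higher. Zfpm2 (Fog2), a cofactor of GATA and COUP-TF factors, was 8.32-fold lower in the floor plate on 1 of its 2 probe sets, at -1.39, -1.18 and -1.78 against 2.12, 1.18 and 1.52 (log2 difference -3.06, SE 0.25). The other set gave -0.17. Bcl11a, a COUP-TF partner, was lower on 1 of 7 probe sets (-0.89) and Nrip1 (Rip140) higher on 1 of 6 (0.54), and neither held in every fit without 1 sample. None of the 8 measured chaperone genes of steroid receptors was called.

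Among 11 measured retinoic acid receptor target genes, 3 were higher and 2 lower. Rarres1, a retinoid-induced gene, was 3.36-fold higher, at 0.998, 0.743 and 0.881 against -1.001, -0.743 and -0.876. The retinaldehyde reductase gene Dhrs3 was 3.03-fold higher. Tshz1, a zinc finger gene, was 1.60-fold higher and lost its call in each fit without 1 sample (adjusted p = 0.0503 to 0.0931). On the other side, the homeobox gene Meis2 was 2.61-fold lower on its most changed probe set and Crabp2, a retinoic acid-binding protein gene, 1.61-fold lower. For Crabp2 the call was lost when replicate 1 of the floor plate or of the ventral lateral region was left out (adjusted p = 0.0503 and 0.0501). The median of the list was 0.37, beside -0.00 over all named genes. The receptor gene Rarb, itself a direct target, had a difference of 0.45 that did not pass (adjusted p = 0.0649). The remaining uncalled targets lay on both sides of 0. Stra6 gave 0.48 and Tgm2 0.05 to 0.62 over its probe sets, whereas Cyp26a1, Cyp26b1 and Hoxb1 gave -0.16, -0.05 and -0.16.

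Of 11 liver X receptor targets 2 were higher, Smpdl3a (2.53-fold), which encodes a phosphodiesterase, and the lipogenic factor gene Srebf1 (1.48-fold). Smpdl3a stayed called in each fit without 1 sample, and Srebf1 in 1 of the 6. Of 10 measured PPAR targets 1 was higher, the fatty acid transporter gene Cd36 (2.06-fold). It was called on 2 of 3 probe sets (1.04 and 0.64 on the log2 scale) and as a gene lost its call in 3 of the 6 fits without a sample, those lacking floor plate replicate 1 or 3 or ventral lateral replicate 1.

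In the thyroid hormone list, the transporter gene Slco1c1 was 6.33-fold higher, at 1.25, 1.34 and 1.34 against -1.25, -1.38 and -1.43 (SE 0.09, adjusted p = 6.04e-05 in limma). Rcan2 was 2.33-fold lower on the more changed of its 2 probe sets, both called, and as a gene lost its call only in the fit without ventral lateral replicate 3. The other 6 of 8 measured genes were not called, including Klf9, which had 1.27 on 1 probe set (adjusted p = 0.145). Shh, also a floor plate marker, was another, with 1.76 and 0.16 on its probe sets (adjusted p = 0.0734 and 0.56 in limma). Of 11 glucocorticoid receptor targets and ligand enzymes only Zbtb16 was called, 2.20-fold lower, and lost its call in 3 fits without 1 sample. Fkbp5 and Tsc22d3, which glucocorticoids usually induce, gave -0.43 to 0.05 and 0.07 to 0.19 with no call. Mt2, Sgk1 and Klf15 gave 0.74, 0.46 and 0.41, and the ligand enzyme gene Hsd11b2 gave -0.38, all uncalled. The gene means of this list ran from -0.70 to 0.74, with a median of 0.03. Whether the targets follow the receptor gene was not tested.

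Of 14 clock genes 2 were higher in the floor plate. They were Per2 (2.73-fold), a core repressor of the clock, and Hlf (2.46-fold), one of its output factors, each on 1 of their several probe sets. The Per2 call was lost when floor plate replicate 1 was left out (adjusted p = 0.0518).

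**Figure D4:**
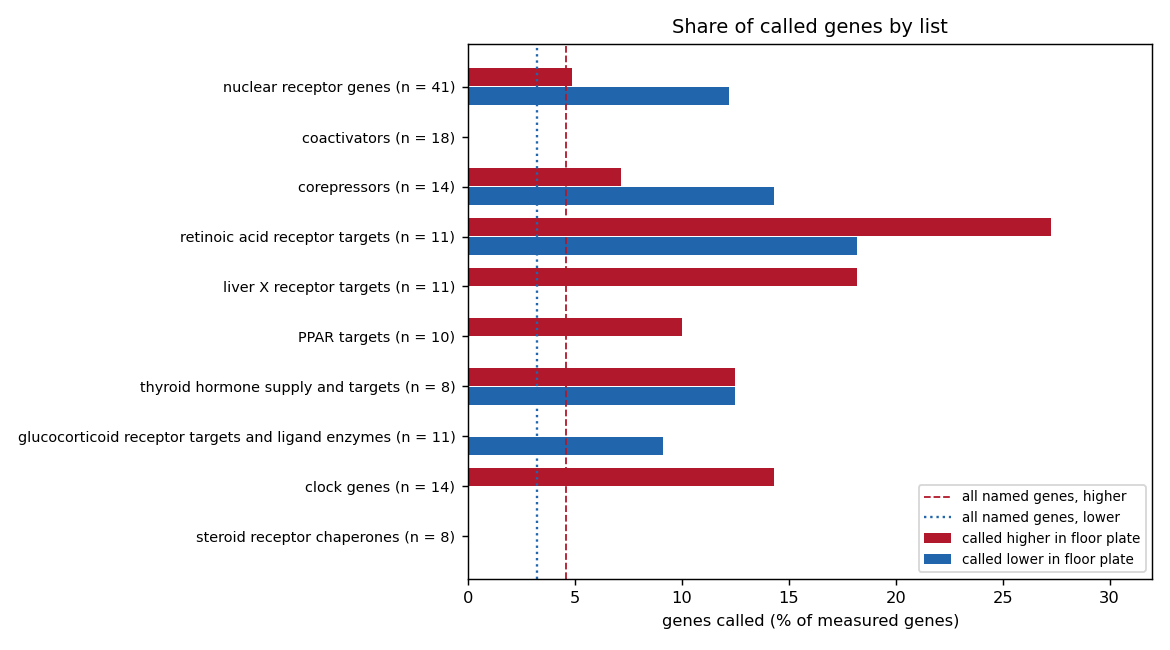
Genes called higher (red) or lower (blue) in the floor plate as a percentage of the measured genes of each list, with the shares over all named genes as vertical lines (4.58% higher, 3.24% lower). Lists are small, so 1 gene moves a bar far; for the nuclear receptor genes the bars stand for 2 higher and 5 lower of 41, and for the retinoic acid receptor targets for 3 higher and 2 lower of 11.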

How the data were processed

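RNA of 3 floor plate and 3 ventral lateral pools was measured on Affymetrix arrays. The deposited log2 values were made by the authors with RMA, per the submitters' processing notes, and have no stated version. RMA subtracts background and quantile-normalizes, which brings the arrays to one distribution and can hide a shift shared by most genes. For 100.0% of probe sets the median over the 6 arrays was within 1e-06 of 0, so the values were centred. Log base, centring step and direction are not stated; log2 with higher meaning more RNA was assumed. No level, background or depth can be had from them, and no filter on dim probe sets was possible. The number of arrays limits precision.

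Names came from GEO's platform annotation: 34945 probe sets had 1 symbol, 932 several and 9160 none, and 64 were controls. No symbol changed against RefSeq (GRCm38.p6, 34741 matched). Each of 45037 probe sets was fitted in limma 3.58.1 (R 4.3.3; lmFit, then eBayes), floor plate minus ventral lateral, with no block, and Benjamini-Hochberg adjustment over all. The fit was also run on simulated data with independent normal noise, and its recovery of small differences is not reported here. Tables were made with Python 3.11.15 and pandas 2.3.3. Gene differences in lists are means over probe sets. Members with a call were named, as were uncalled members differing by at least 1 on the log2 scale, and up to 6 called genes per list; others were chosen after their values were seen. The members and lists were chosen with earlier results of these data known. Alternatives were scaling, eBayes settings, array weights, the replicate block, the probe sets used, thresholds and leaving out each sample.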

Additional observations from a re-analysis of the deposited data

How the results depend on the processing

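Among alternatives that refit a probe set, Nr0b1 and the leading sets of Nr2e1 and Nr5a2 were called in 14 of 14 and Nr3c1 in 13 of 13, while Rxrg and the second Nr5a2 set were called in 10 of 14, Rorb in 6 and Esrra in 5. With 1 value per gene, taken in 3 ways, Nr0b1, Nr2e1, Nr5a2, Rxrg and Esrra were called in all 3, Nr3c1 in 2 and Rorb in 1. Nr0b1 and Rxrg have 1 probe set each, so the 3 ways repeat the same value. For Nr2e1, Nr5a2 and Esrra only the mean over probe sets differed from the probe set already called. The adjustment there was over fewer tests, so these counts add little to the main fit. Leaving out 1 sample, and so fitting fewer, gave 1 to 2 member probe sets higher and 3 to 5 lower, 1 to 2 genes higher and 3 to 5 lower, and 753 to 991 of all probe sets higher and 510 to 743 lower, beside 1218 and 903. At a threshold of 0.01 the members called were 1 probe set higher and 3 lower, or 1 gene and 3 genes, and 584 and 373 of all probe sets; at 0.10 there were 4 and 6 member probe sets and 1733 and 1419 of all probe sets. Requiring a 2-fold change as well left 1 member probe set higher and 4 lower, 1 gene higher and 3 lower, and 615 and 408 of all probe sets. Without _x_at and _s_at sets, 1 member probe set, of 1 gene, was higher, as was 1 gene on the lowest-numbered probe sets, where Nr4a3 turned to -0.10 (another probe set, adjusted p = 0.662). Under eBayes with trend and robust options there were 3 higher members, Nr4a3 being the added gene (adjusted p = 0.0271); trend and cyclic loess use a probe set's mean, which in centred values is no level.

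With the replicate number as a block, 3 member probe sets were higher and 6 lower, and 1062 and 842 of all probe sets. Nr4a3 (adjusted p = 0.0182), Nr6a1 (0.0432) and Pgr (-0.54, 0.0463) were gained there, and Rorb (0.0902) and Esrra (0.0803) lost. Same-numbered samples deviated together with r of 0.0096, 0.125 and 0.114 over probe sets, and samples of unlike number with r of -0.149 to 0.027. The labels do not state pairs and the main fit took none. These values do not settle whether the numbers mark pairs.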
